A study of Homo sapiens with 3 samples.

Results

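The genes described here are 48 cancer-testis and germline genes, read on arrays of SKOV3 cells (SKOV-3 in the study's own text). They were chosen by symbol, with earlier results of these data known. They are cancer-testis antigens of the MAGE, PAGE and SSX families and beyond, and genes of meiosis, the piRNA pathway and germ cell chromatin. A gene was measured where at least 1 probe set of the array carried its symbol and no other, which held for 47 of the 48 genes, among 19775 genes so measured on the array. MAGEA3 was the exception, since it has no probe set of its own. The 47 genes had 68 probe sets. By role the 48 are 8 MAGE-A antigens, 4 MAGE-B and MAGE-C antigens, 5 PAGE and SSX antigens, 10 other cancer-testis antigens, 6 genes of the meiotic chromosome axis and cohesin, 11 genes of the piRNA pathway and germ cell RNA regulation, and 4 genes of germ cell chromatin, transcription, intercellular bridges and the egg coat. Of the 48, 23 lie on the X chromosome.

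SKOV3 is an established human ovarian cancer cell line. The cells had been stably transduced and selected with puromycin, and expressed G9a shRNA1, G9a shRNA2 or, as the control, Luc shRNA, a hairpin against luciferase. G9a, encoded by EHMT2, is a methyltransferase that places methyl groups on lysine 9 of histone H3, and the comparison asked which genes changed when it was depleted. Each condition was measured on 1 Affymetrix whole-genome array, 3 arrays in all, so replicate error is unknown, nothing was tested across replicates, and both G9a shRNA arrays are compared with the same Luc shRNA array. Whether the cells of a condition came from 1 clone or a mixed population is not given in the sources used here.

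Cancer-testis antigens are genes whose expression in healthy adults is largely limited to the testis and, for some, the placenta, and which reappear in many tumours, where their peptides can be recognised by T cells. Many lie in multicopy families on the X chromosome, and their promoters are known to be kept silent in somatic cells by methylation of CpG dinucleotides. Germline genes outside these families, such as those of meiosis and the piRNA pathway, are mostly autosomal and are held silent in part by a repressor complex that contains E2F6, MGA and L3MBTL2. In mouse embryonic stem cells, G9a and its partner GLP are known to keep a set of germline genes silent, Mage-a genes among them.

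The 150 bases before the annotated start site of 6 X-linked members are printed because these genes stood highest over Luc shRNA, as described further on, and because CpG dinucleotides, shown in capitals, are the sites at which such promoters can be methylated. The sequences are from RefSeq on GRCh38.p14 and run 5′ to 3′ along the strand of the gene. For MAGEA12 the first of its start sites is shown. The seventh gene of this kind, MAGEA1, had no entry in the promoter table.
MAGEA6 (chrX:152769690-152769839, - strand): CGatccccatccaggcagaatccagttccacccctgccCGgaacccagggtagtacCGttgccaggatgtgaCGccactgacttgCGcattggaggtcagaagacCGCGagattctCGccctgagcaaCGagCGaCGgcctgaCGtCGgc
MAGEA12 (chrX:152733607-152733756, + strand): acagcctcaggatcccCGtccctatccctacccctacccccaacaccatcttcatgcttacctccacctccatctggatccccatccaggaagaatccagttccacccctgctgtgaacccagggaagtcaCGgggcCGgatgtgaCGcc
MAGEC2 (chrX:142205291-142205440, - strand): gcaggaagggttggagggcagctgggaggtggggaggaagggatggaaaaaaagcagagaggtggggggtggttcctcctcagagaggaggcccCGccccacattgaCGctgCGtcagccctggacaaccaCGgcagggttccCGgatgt
FAM133A (chrX:93674056-93674205, + strand): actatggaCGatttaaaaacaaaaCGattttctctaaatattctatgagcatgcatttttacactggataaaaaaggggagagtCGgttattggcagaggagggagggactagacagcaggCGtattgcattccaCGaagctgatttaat
PAGE1 (chrX:49695985-49696134, - strand): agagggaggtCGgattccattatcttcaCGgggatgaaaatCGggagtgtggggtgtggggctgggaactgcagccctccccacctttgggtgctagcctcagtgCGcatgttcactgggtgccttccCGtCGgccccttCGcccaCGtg
SSX1 (chrX:48255242-48255391, + strand): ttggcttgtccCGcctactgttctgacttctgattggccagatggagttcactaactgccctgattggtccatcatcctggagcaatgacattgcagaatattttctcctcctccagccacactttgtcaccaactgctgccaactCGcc
The stretches hold 13 CpG in MAGEA6, 4 in MAGEA12, 5 in MAGEC2, 5 in FAM133A, 8 in PAGE1 and 2 in SSX1. The 150 bases before the second start site of MAGEA12, which overlap those shown, hold 12. The window of MAGEA3, from 250 bases before to 50 after its start, is the same as that of MAGEA6 in 300 of 300 bases, though the genes lie apart and on opposite strands.

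Facts of the arrays set how the signals can be read. EHMT2 at its brightest probe set read 29.7 with G9a shRNA1 and 79.2 with G9a shRNA2, against 182 with Luc shRNA, log2 ratios of -2.62 and -1.20, the lower signal being that of G9a shRNA1. A second EHMT2 probe set gave -0.21 and -0.75. Median signals were 12.3 with G9a shRNA1, 11.8 with G9a shRNA2 and 11.7 with Luc shRNA. The control probe sets for β-actin had a 3′ to 5′ ratio of 1.83 for G9a shRNA1, 1.47 with G9a shRNA2 and 3.68 with Luc shRNA, a sign of RNA quality that moved with the conditions, while the GAPDH ratio lay between 1.12 and 1.15. The part of the β-actin difference in the results below was not tested. Of 11 markers of ovarian carcinoma epithelium, 10 passed the filter on low values. Their probe sets summed to 10203 with G9a shRNA1 and 11929 with G9a shRNA2, against 8606 with Luc shRNA, and KRT19 read 49.9 with G9a shRNA1 and 48.2 with G9a shRNA2, against 13.4 with Luc shRNA, log2 ratios of 1.90 and 1.84. None of the 7 probe sets of leukocyte markers passed, the highest at 9.03, and 3 of 8 probe sets of endothelial markers did, all of PECAM1, the highest at 29.9. The leukocyte probe sets summed to 20.5 with G9a shRNA1 and 21.4 with G9a shRNA2, against 12.2 with Luc shRNA, and the endothelial ones to 76.6 and 80.2, against 47.9. The part of these markers in the results below was not tested either.

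Most of the 68 member probe sets read near the background. A probe set passed the filter when the highest of its 3 signals reached the median of all values, 12.0, and 19 member probe sets of 17 genes passed, while 49 did not. Of the 17 genes, 11 are X-linked and 6 autosomal. For 8 of the 19 probe sets the Luc shRNA signal was itself under the median, so that they passed only through a G9a shRNA array, and such a probe set had to stand higher with G9a shRNA. The others, 11 probe sets, reached the median with Luc shRNA. Genes with no probe set past the filter numbered 30. Fewer cells that express a gene and less of its RNA in each cell cannot be told apart in these bulk samples.

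**Figure D1:**
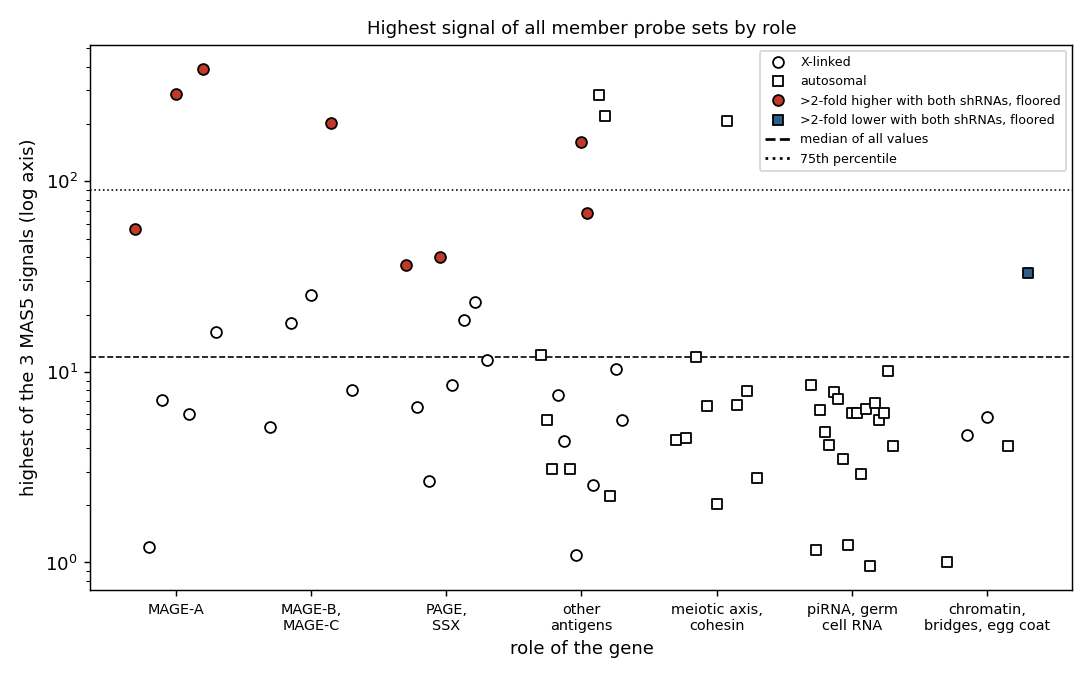
Highest of the 3 MAS5 signals (linear units, log axis) of each of the 68 member probe sets, by role of the gene, with X-linked genes as circles, autosomal genes as squares, and the median (12.0) and the 75th percentile (89.7) of all values as lines. Filled symbols are more than 2-fold from Luc shRNA with both G9a shRNAs after values under the median were raised to it: 8 X-linked probe sets higher (red) and 1 autosomal probe set, of ZP1, lower (blue).

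Of the 19 member probe sets past the filter, 9, of 8 genes, were more than 2-fold higher than Luc shRNA with both G9a shRNAs, against 3.32% of all 30446 probe sets past the filter. With both more than 2-fold lower there was 1 of the 19, against 1.79% of all. When only 1 shRNA had to pass 2-fold, with the other on the same side, 12 of the 19 member probe sets were higher and 1 lower, against 7.17% and 6.14% of all. Ratios of values near the background are unsteady, so every value under the median was also raised to it before the ratio was taken. Then 8 of the 19 member probe sets, of 7 genes, were more than 2-fold higher with both shRNAs and 1 was lower, against 0.93% and 0.64% of all probe sets past the filter. The 7 genes were MAGEA1, MAGEA6, MAGEA12, MAGEC2, PAGE1, SSX1 and FAM133A, and the lower gene was ZP1. As the members were chosen with earlier results of these data known, these counts and shares are descriptions.

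All 9 probe sets past the filter that were higher, and all 8 that stayed higher after the floor, belong to X-linked genes. Of 30 X-linked member probe sets, 13 passed the filter, and of 38 autosomal ones, 6 did, so few autosomal members could be read at all. None of these 6 autosomal probe sets was more than 2-fold higher with both shRNAs, while ratios of the 32 under the filter rest on signals near the background. Outside the members, 7 of 765 X-linked probe sets past the filter, or 0.915%, were more than 2-fold higher with both after the floor. These were 2 probe sets of VCX2, a member of a testis-expressed family, and 1 each of IL13RA2, BEX5, STK26, ATG4A and TAF9B.

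**Figure D2:**
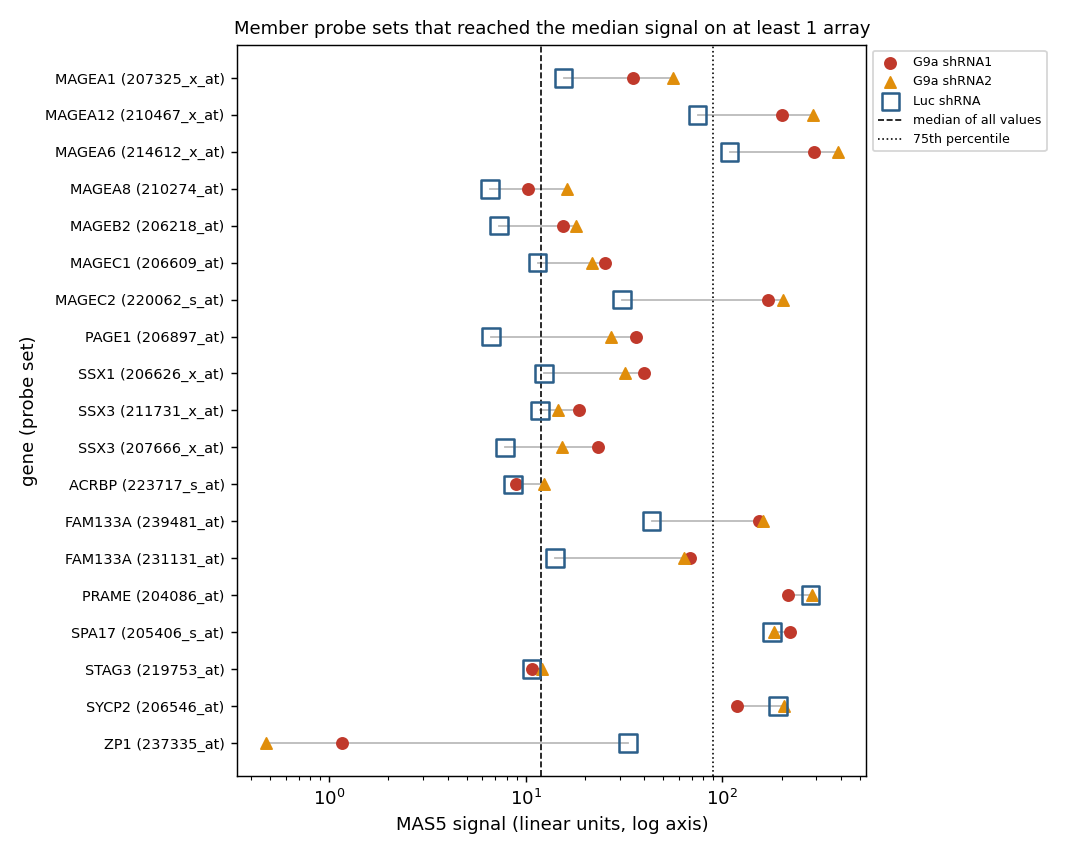
MAS5 signal (linear units, log axis) of the 19 member probe sets past the filter, with G9a shRNA1 as red circles, G9a shRNA2 as orange triangles and Luc shRNA as open blue squares, 1 array each. Both G9a shRNA signals lie right of the Luc shRNA signal for every X-linked gene shown (MAGE, PAGE, SSX and FAM133A). PRAME, SPA17 and SYCP2 overlap it and ZP1 lies far left of it. Of the 13 X-linked probe sets, 6 passed only through a G9a shRNA array, so their direction was partly fixed by the filter. X-linked members under the filter, such as MAGEB1 and PAGE5 with lower signals near background, are not shown.

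Of the 8 MAGE-A antigens, proteins with a MAGE homology domain that bind RING-type ubiquitin ligases, MAGEA1, MAGEA6, MAGEA8 and MAGEA12 passed the filter and stood above Luc shRNA. MAGEA6, which is known to work with the ligase TRIM28, read 291 with G9a shRNA1 and 386 with G9a shRNA2, against 109 with Luc shRNA, log2 ratios of 1.42 and 1.83. It was among the probe sets that reached the 75th percentile of all values, 89.7, where the difference between the G9a shRNA arrays had an SD of 0.25 on the log2 scale. MAGEA12 had 199.7 with G9a shRNA1 and 288 with G9a shRNA2, against 74.8 with Luc shRNA, log2 ratios of 1.42 and 1.94. MAGEA1, a melanoma antigen recognised by T cells, had 34.9 with G9a shRNA1 and 55.9 with G9a shRNA2, against 15.6 with Luc shRNA, log2 ratios of 1.17 and 1.84. At all 3 probe sets the G9a shRNA2 signal was the higher of the pair. MAGEA8 had 10.2 and 16.1, against 6.56 with Luc shRNA, and its log2 ratios of 0.64 and 1.30 became 0.00 and 0.43 after the floor.

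The probe sets of MAGEA1, MAGEA6 and MAGEA12 end in _x_at, the array's mark for probe sets whose probes can also match other sequences, and members of this family are close in sequence. Their readings may therefore share signal, and are not 3 independent observations. A probe set annotated to both MAGEA3 and MAGEA6 read 382 with G9a shRNA1 and 377 with G9a shRNA2, against 114 with Luc shRNA, and which of these genes gave the signal cannot be told apart. Of the 8 member probe sets that stayed higher after the floor, 4 were _x_at, 3 were _at, the plain type, and 1 was _s_at, which marks a probe set shared by transcripts. The _at probe sets were those of FAM133A and PAGE1. MAGEA4, MAGEA10 and MAGEA11, the last a coactivator of the androgen receptor, stayed under the filter on every array, with no signal above 7.16.

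MAGEC2, which binds and activates TRIM28, was the member furthest above Luc shRNA after the floor. Its signal was 169.7 with G9a shRNA1 and 203 with G9a shRNA2, against 30.8 with Luc shRNA, 5.52-fold and 6.62-fold higher, or log2 ratios of 2.46 and 2.73. A second MAGEC2 probe set lay under the filter on every array, with 0.25 and 0.68 with the G9a shRNAs against 8.07 with Luc shRNA, and ran the other way. MAGEC1, its neighbour on the X chromosome, had 25.4 with G9a shRNA1 and 21.8 with G9a shRNA2, against 11.5 with Luc shRNA, log2 ratios of 1.15 and 0.92, so only G9a shRNA1 passed 2-fold. MAGEB2 had 15.4 and 18.0, against 7.33 with Luc shRNA. Its log2 ratios were 1.07 and 1.30 as deposited but 0.36 and 0.59 after the floor, and it was the 1 gene that left the set of higher genes with the floor. MAGEB1 stayed under the filter.

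PAGE1, of a family related to the GAGE antigens, had 36.5 with G9a shRNA1 and 27.1 with G9a shRNA2, against 6.67 with Luc shRNA. As its Luc shRNA signal was under the median, its log2 ratios of 2.45 and 2.02 became 1.61 and 1.18 after the floor. SSX1, a repressor of transcription whose gene is fused to SS18 in synovial sarcoma, had 40.0 with G9a shRNA1 and 32.1 with G9a shRNA2, against 12.4 with Luc shRNA, log2 ratios of 1.69 and 1.37. At both probe sets the G9a shRNA1 signal was the higher of the pair. A second SSX1 probe set lay under the filter, with 8.57 and 3.65, against 4.27 with Luc shRNA, on both sides of it. SSX3, a close relative, had 23.3 with G9a shRNA1 and 15.2 with G9a shRNA2, against 7.85 with Luc shRNA, at a first probe set. At another it had 18.7 and 14.6, against 11.8 with Luc shRNA. All the G9a shRNA signals of SSX3 past the filter were above Luc shRNA, but neither probe set was past 2-fold with both shRNAs, and a further one stayed under the filter. The SSX1 and SSX3 probe sets past the filter also end in _x_at, so they may share signal and are not independent observations. PAGE4 and PAGE5 stayed under the filter.

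FAM133A, a cancer-testis antigen whose function is little known, was the only member read above Luc shRNA by more than 1 of its own probe sets past 2-fold. The brighter gave 153 with G9a shRNA1 and 161 with G9a shRNA2, against 43.6 with Luc shRNA, log2 ratios of 1.81 and 1.88. The dimmer gave 68.1 and 63.9, against 14.0 with Luc shRNA, log2 ratios of 2.28 and 2.19. At both probe sets the G9a shRNA arrays lay closer to each other than to Luc shRNA.

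The remaining antigens that passed the filter had G9a shRNA signals close to or on both sides of Luc shRNA. PRAME, a substrate receptor of a cullin ubiquitin ligase that is known to repress retinoic acid receptor signalling, had 216 with G9a shRNA1 and 285 with G9a shRNA2, against 280 with Luc shRNA, log2 ratios of -0.38 and 0.03. SPA17, a protein of the sperm tail, had 220.05 and 183, against 179 with Luc shRNA, log2 ratios of 0.30 and 0.03. Both are autosomal and both reached the 75th percentile, where the G9a shRNA arrays differed with an SD of 0.25. ACRBP, which binds proacrosin in the sperm acrosome, read 8.94 with G9a shRNA1 and 12.3 with G9a shRNA2, against 8.60 with Luc shRNA. CTAG2, a relative of NY-ESO-1, the RNA helicases DDX43 and DDX53, LUZP4, TEX101 and TKTL1, a transketolase-like protein, stayed under the filter at all their probe sets, the highest at 10.3.

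Of the 6 meiotic genes, SYCP2 and STAG3 passed. SYCP2, a protein of the axial elements on which homologous chromosomes pair, had 119 with G9a shRNA1 and 207 with G9a shRNA2, against 192 with Luc shRNA, log2 ratios of -0.69 and 0.11. The G9a shRNA arrays thus lay on opposite sides of Luc shRNA, and its second probe set was under the filter. STAG3, a cohesin subunit of meiosis, read 10.8 and 12.03, against 10.7 with Luc shRNA, at the edge of the filter. HORMAD1, SMC1B, SYCP1 and SYCP3, of the chromosome axis, meiotic cohesin and synaptonemal complex, stayed under it, with no signal above 7.93.

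None of the 19 probe sets of the 11 piRNA and germ cell RNA genes reached the median on any array. These are the PIWI proteins PIWIL1 and PIWIL2, the helicases DDX4 and MOV10L1, the Tudor proteins TDRD1, TDRD9, RNF17 and STK31, the piRNA factors MAEL and TEX15, and DAZL, which binds RNA. The highest signal of each probe set lay between 0.963 and 10.1. Changes of these genes were not detectable at these signals, which does not show that they were absent. The same holds for BRDT, a testis bromodomain protein, TAF7L, a germ cell form of a TFIID subunit, and TEX14, of the intercellular bridges, with no signal above 5.83.

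ZP1, a glycoprotein of the egg coat, was the 1 member past the filter that was more than 2-fold lower with both shRNAs. Its signal was 1.17 with G9a shRNA1 and 0.477 with G9a shRNA2, against 33.0 with Luc shRNA. The log2 ratios of -4.82 and -6.11 rest on values near 0, and after the floor both were -1.46. The gene passed the filter only through the Luc shRNA array, which is a single reading.

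**Figure D3:**
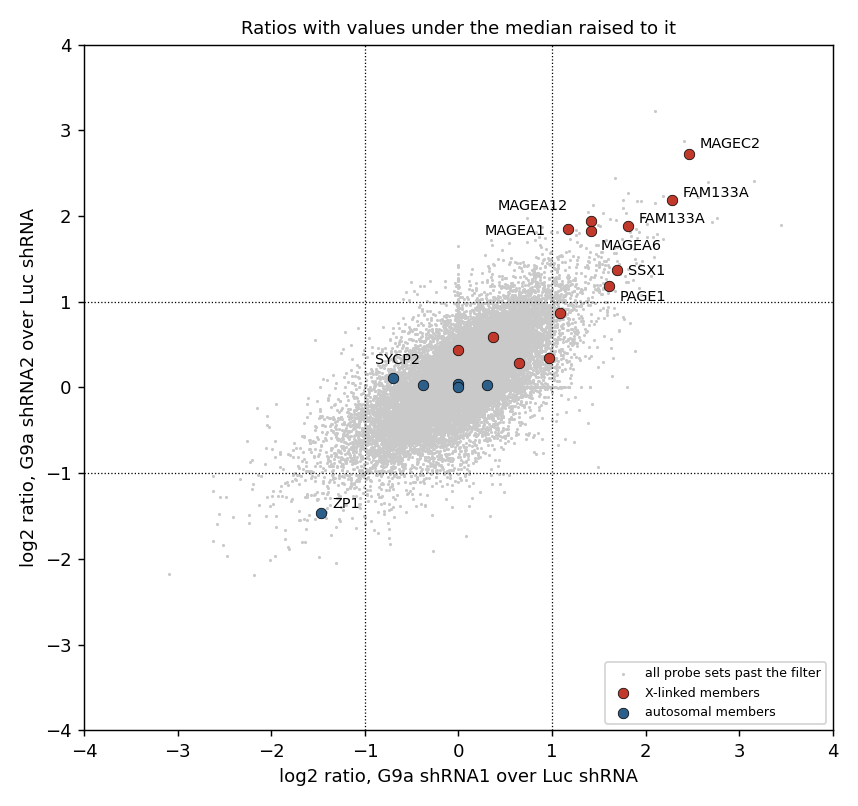
Log2 ratio of G9a shRNA1 over Luc shRNA (x axis) and of G9a shRNA2 over Luc shRNA (y axis), with low values raised to the median, for all 30446 probe sets past the filter (grey, 1 of which lies outside the axes) and the 19 of the members (red X-linked, blue autosomal). Dotted lines mark 2-fold; 8 X-linked member probe sets lie beyond them at the upper right and ZP1 at the lower left, and since both axes share the Luc shRNA array, the slope of the grey points is no measure of likeness between the shRNAs.

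The signal level set how far the ratios could be read. Among 24229 probe sets under the median, the difference between the G9a shRNA arrays had an SD of 1.77 on the log2 scale, and with no filter 13.8% were more than 2-fold higher and 11.6% lower with both shRNAs. Of the 49 member probe sets there, 6 were higher, or 12.2%, and 6 lower, a share close to that of all. Among 15764 probe sets between the median and the 75th percentile the SD was 0.86 and 5.81% were higher, against 5 of 12 member probe sets, or 41.7%. Among 14682 at or above the 75th percentile the SD was 0.25 and 0.654% were higher, against 4 of 7 member probe sets, or 57.1%. The 4 were those of MAGEA6, MAGEA12 and MAGEC2 and the brighter of FAM133A, and the other 3 were PRAME, SPA17 and SYCP2. The members past the filter are in part there because they were higher with G9a shRNA, so these shares are a description. Counting each gene at its brightest probe set, the median of the mean log2 ratio was 1.03 over the 17 member genes past the filter and 0.05 over all 13192 such genes. With no filter it was 0.45 over the 47 measured members and 0.04 over all 19775 genes, and with no filter and values raised to the median it was 0 in both.

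The promoter windows of the members were read for CpG dinucleotides. Of the 48 genes, 39 had a match among the RefSeq promoters, with 57 windows from 250 bases before to 50 after a start site. The median number of CpG was 12.5 in the windows of X-linked members and 21 in those of autosomal members, against 14 in all 35116 windows and 14 in all X-linked windows. The 7 windows of 6 genes that stayed higher after the floor held from 5 to 19, with a median of 10. The 37 windows of members under the filter held from 1 to 60, with a median of 18, and the 12 of other members past it had a median of 13.5. The 1 window of MAGEA3, with 19, is in none of these groups. The ranges overlap widely, and windows of a gene share bases, so the medians are descriptions.

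Motifs were searched as letters on both strands of the windows. CCGGAA is 1 form of the core bound by ETS factors, which are known to act at MAGE promoters. It was in 21.1% of the members' windows and 17.2% of all. Among the 7 windows of the higher genes it was in 1, of MAGEA6, within the stretch printed above. The form CCGGAT was not searched, and it occurs in the printed stretches of MAGEA12 and MAGEC2. The counts of CCGGAA are thus no count of all ETS cores. TCCCGC, a core bound by E2F factors, was in 55.2% of the autosomal members' windows (16 of 29), 14.3% of the X-linked members' windows and 26.9% of all. Among the higher genes only the SSX1 window held it. A match is a run of letters and not a bound site.

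Neighbours of the higher members were taken as the nearest protein-coding genes on the X chromosome with a probe set of their own. Of those that are no members, none that could be read was more than 2-fold from Luc shRNA. Probe sets shared by several genes were not read here. A shared one of MAGEA2 and MAGEA2B, described further on, had log2 ratios of 1.49 and 1.16. CETN2, the protein-coding gene with a probe set of its own after MAGEA6, had log2 ratios of 0.00 and -0.02, and ZNF275, after MAGEA1, had 0.12 and 0.32. NAP1L3 and DIAPH2, on either side of FAM133A, had -0.85 and -0.55, and -0.37 and -0.32, while FAM133A stood above Luc shRNA. GABRQ, PNMA6A, SLITRK4, ZNF630 and GAGE1, beside MAGEA12, MAGEA1, MAGEC2, SSX1 and PAGE1, were under the filter.

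Other genes of the same classes were read for comparison. Of 82 further cancer-testis antigens, 40 had a probe set of their own, and 14 of 51 probe sets passed the filter. As deposited, 5 were more than 2-fold higher with both shRNAs and 1 lower, against 3.32% and 1.79% of all probe sets past the filter. Among the 5, CT55, FATE1 and TSSK6 were dim on the Luc shRNA array, at 1.72, 7.66 and 3.14. Only G9a shRNA readings took these genes past the filter, so they could not have been called lower. The lower gene, PASD1, reached the median with Luc shRNA alone, at 14.1. These counts were thus set in part by the filter and are descriptions. After the floor 2 were higher, against 0.93% of all. IL13RA2, a decoy receptor for interleukin-13, had 208 with G9a shRNA1 and 123 with G9a shRNA2, against 49.9 with Luc shRNA, log2 ratios of 2.06 and 1.30. ZNF165, an autosomal zinc finger gene, had 329 and 404, against 145 with Luc shRNA, log2 ratios of 1.19 and 1.48. Not every antigen read at a high signal stood above Luc shRNA: SPANXB1, of a sperm nuclear protein family on the X chromosome, had 3544 with G9a shRNA1 and 3590 with G9a shRNA2, against 4081 with Luc shRNA.

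Of 53 other genes of meiosis and germ cells, 45 were measured and 19 of 63 probe sets passed. As deposited 0 were higher and 1 lower with both shRNAs, against 3.32% and 1.79% of all probe sets past the filter. After the floor there were 0 of either kind, against 0.93% and 0.64% of all. Of 22 late germ cell genes, markers of spermatids and sperm, 6 of 31 probe sets passed, 1 was higher as deposited and 0 after the floor, and no signal exceeded 15.8. None of the late germ cell genes reached the 75th percentile on any array. Of the ubiquitous MAGE genes, which are expressed in many tissues, 8 of 15 probe sets passed and 0 were past 2-fold with both. Of 30 probe sets of the E2F6, MGA and L3MBTL2 repressor complex, 28 passed, 0 were past 2-fold, and the median log2 ratio of its 11 measured genes was 0.16. In lists of these sizes the shares over all probe sets would give few calls or none. The counts of 0 are therefore no contrast with the antigens.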

How the data were processed

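RNA of SKOV3 cells with G9a shRNA1, G9a shRNA2 or Luc shRNA was read on 1 Affymetrix U133 Plus array each, and groups were taken from the sample labels. The authors deposited 1 intensity for each of 54675 probe sets, a MAS5 signal on a linear scale per the labels' processing notes. The version, settings and scaling target of MAS5 are not given in the sources used here, and the 2% trimmed means, 105 with G9a shRNA1, 115 with G9a shRNA2 and 106 with Luc shRNA, are unequal. MAS5 reads mismatch probes to remove background, which leaves low signals noisy, so that signal over background and the number of arrays limit the precision.

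Log2 ratios of either G9a shRNA array over the Luc shRNA array were taken from the signals without further scaling. Probe sets were named by the array annotation, updated through Entrez identifiers: 41097 had 1 symbol, 1801 several and 11777 none, and 54 of the first kind had no match in the gene table. A probe set was kept when its highest signal reached the median of all values, 12.0, and called when more than 2-fold from Luc shRNA with both shRNAs, as deposited and after lower values were raised to that median (the floor). A gene stood for its brightest probe set.

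Members and lists were chosen with earlier results of these data known. All 48 members could be named. Values in every array are given for EHMT2, for members at or above the 75th percentile, for those past 2-fold with both shRNAs, and for genes of the other lists past 2-fold with both after the floor. Those of other members that passed the filter were added after their values were seen. Alternatives were other filters, the floor, quantile and trimmed-mean scaling, other thresholds, genes in place of probe sets, each shRNA alone, the mean over probe sets and limma. Promoter windows, gene positions and neighbours are from RefSeq (GRCh38.p14). Scripts were tested on simulated data and run in Python 3.11.15 (numpy 2.4.6, pandas 2.3.3, matplotlib 3.10.9) and R 4.3.3 (limma 3.58.1). The study's other assays were not analysed here.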

Additional observations from a re-analysis of the deposited data

Results flagged for a closer look

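Some probe sets are annotated to several genes of 1 cancer-testis family, so they name no single gene and were kept out of the member counts. Of 30 such probe sets from 10 families, 23 passed the filter. Of the 23, 10 were more than 2-fold higher with both G9a shRNAs and 0 lower, against 3.32% and 1.79% of all probe sets past the filter. Several of the 10 were dim on the Luc shRNA array, such as that of MAGEA9 and MAGEA9B at 1.46 and that of NXF2 and NXF2B at 6.91. Only their G9a shRNA readings took them past the filter, so they could not have been called lower. The counts of 10 and 0 were thus set in part by the filter and are descriptions. After values under the median were raised to it, 5, from 3 families, stayed higher, against 0.93% of all. These 5 are given here because they stood above the Luc shRNA array, so they are no separate support. Among them is the probe set of MAGEA3 and MAGEA6 given above, and MAGE-A probe sets may share signal with those of members. With 1 array per condition the 5 have no replicate check.

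Both probe sets shared by the CT45A genes, an X-linked family of nearly identical copies, stood above Luc shRNA. The dimmer read 74.2 with G9a shRNA1 and 65.1 with G9a shRNA2, against 20.7 with Luc shRNA, log2 ratios of 1.84 and 1.65. The brighter read 134 and 131, against 42.5 with Luc shRNA, log2 ratios of 1.66 and 1.63. Of the MAGE-A probe sets, the one shared by MAGEA3 and MAGEA6 had log2 ratios of 1.75 and 1.73. One shared by MAGEA2 and MAGEA2B read 38.5 with G9a shRNA1 and 30.7 with G9a shRNA2, against 13.7 with Luc shRNA, log2 ratios of 1.49 and 1.16. Another of MAGEA2 and MAGEA2B read 13.0 with G9a shRNA1 and 8.77 with G9a shRNA2, against 0.393 with Luc shRNA. Its log2 ratios were 0.12 and 0 after the floor, so it did not stay past 2-fold.

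A probe set shared by NXF2 and NXF2B, X-linked genes related to an mRNA export receptor, read 34.8 with G9a shRNA1 and 27.8 with G9a shRNA2, against 6.91 with Luc shRNA. Its log2 ratios were 1.54 and 1.22 after the floor. The other probe sets of this gene pair had 0.11 and 0.68, and 0.88 and 0.74, so they did not pass 2-fold. The probe sets shared by SPANX genes lay below Luc shRNA, with log2 ratios from -0.53 to -0.19.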

How the results depend on the processing

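No paired analysis was possible because each condition has 1 array. Each count of members is given with the share over all probe sets, or all genes, in the same setting. More than 2-fold higher with both G9a shRNAs were 9 of 19 member probe sets past the filter (3.32% of all). This became 15 of 68 with no filter (7.98%), 4 of 7 at the 75th percentile (0.654%) and 4 of 19 at a 3-fold threshold (1.51%). It was 8 of 19 after the floor (0.93%), 9 of 19 after quantile normalization (3.06%) and 9 of 17 after trimmed-mean scaling (3.08%). At 1.5-fold it was 12 of 19 (8.62%), with only 1 shRNA past 2-fold 12 of 19 (7.17%), and by gene 8 of 17 (2.57%). The 1 lower probe set of 19 (1.79%) became 7 of 68 with no filter (6.15%) and 0 of 7 at the 75th percentile (0.456%). Limma was also run on floored values. It took both G9a shRNA arrays as 1 group and assumed that the single Luc shRNA array varies like them. The fit has 1 residual degree of freedom, and on simulated data it made no true call. It therefore cannot decide whether a member changed, and no conclusion is drawn from it.

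The median log2 ratio over member genes, 1.03, was 0.45 with no filter, 1.62 at the 75th percentile, 0.48 after the floor, 0.99 after quantile normalization, 1.14 after trimmed-mean scaling, 1.07 with G9a shRNA1 alone, 1.30 with G9a shRNA2 alone and 0.96 averaged over every probe set of a gene. MAGEC2 reversed to -0.85 in that last setting, where its probe set near background enters. Of 114 recalculated ratios of the 19 member probe sets, 107 changed by less than the SD between the G9a shRNA arrays at that signal level, 6 by more, and this 1 reversed. Many of the 107 could not change: averaging leaves genes with 1 probe set as they are, and the floor leaves signals above it. Under the 75th percentile that SD was 0.86. There PAGE1 went from 2.24 to 1.39 with the floor and MAGEB2 from 1.18 to 0.48, both within the 107. The 107 are thus no measure of steadiness. Scaling lowered G9a shRNA2 ratios by 0.14 (quantile) or 0.11 (trimmed mean) in the median.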
